A study of Mus musculus with 9 samples.

Results

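GATA factors are transcription factors that carry GATA-type zinc fingers, and the 6 of the mouse, Gata1 to Gata6, were followed here through a cardiac differentiation of embryonic stem cells. Members were taken by gene symbol, each from a transcript cluster (the array's unit for a gene) that carries exactly 1 symbol. All 6 were found, with 1 transcript cluster each, among 14860 genes tested. In this report Gata1, Gata2 and Gata3 are called the blood members and Gata4, Gata5 and Gata6 the heart members.

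The cells were from the mouse line E14.1 (129/Ola), and total RNA was hybridised to 9 Affymetrix exon arrays in 3 groups of 3. Cardiac progenitors made from these stem cells were sorted on the VEGF receptor Flk1 (gene Kdr) and the PDGF receptor Pdgfra. Flk1+Pdgfra+ carried both receptors, Flk1+ carried Flk1 without Pdgfra, and cTnT+ are cardiomyocytes grown onward from Flk1+Pdgfra+ whose name refers to the troponin gene Tnnt2. The labels give neither the days of culture nor whether cTnT+ was sorted, all groups come from the same cell line, and nothing says that the 3 arrays of a group are separate cultures, so the p-values reflect array-to-array spread alone, possibly of technical origin.

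As background, GATA factors bind DNA at short sites built around the letters GATA and act with zinc finger partners of the Fog family. Gata1 drives the maturation of red cells and megakaryocytes, Gata2 maintains blood progenitors and is expressed in endothelium, and Gata3 is best known from T cells and is also used in trophoblast. Gata4 and Gata6 act in heart mesoderm and in endoderm, and Gata5 in heart and endocardium.

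The short GATA sites can be shown in promoter sequence. RefSeq promoter windows of build GRCm38.p6 (250 bases before to 50 bases after a transcript start) matched 4 members, Gata1, Gata2, Gata3 and Gata5, with 5 windows in all. The windows were searched on both strands for 4 spellings of the GATA site: AGATAA and also TGATAA, then AGATAG and also TGATAG. Of all 32851 windows of 300 bases, 29.8% held at least 1 of these. Among the 5 member windows only that of Gata3 did, with TGATAG beginning 37 bases after the start, while all 5 held the GC box GGGCGG, which 35.7% of all windows hold on either strand. The windows of Gata1, Gata3 and Gata5 lie inside the gene spans given below. Starts at the outer ends of these genes were not searched. The 250 bases before the start follow for Gata1 and Gata5, the members with the largest rises from Flk1+Pdgfra+ to cTnT+, and for Hba-x, Alas2 and Nppa, genes described below whose windows hold a GATA motif. They run 5′ to 3′ in the direction of the gene, and capitals mark the motif on either strand.
Gata1, chrX:7967911-7968160, minus strand: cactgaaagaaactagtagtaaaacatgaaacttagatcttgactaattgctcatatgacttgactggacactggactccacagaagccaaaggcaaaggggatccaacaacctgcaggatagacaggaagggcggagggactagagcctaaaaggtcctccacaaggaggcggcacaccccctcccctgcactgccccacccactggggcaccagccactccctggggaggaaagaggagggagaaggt
Gata5, chr2:180334680-180334929, minus strand: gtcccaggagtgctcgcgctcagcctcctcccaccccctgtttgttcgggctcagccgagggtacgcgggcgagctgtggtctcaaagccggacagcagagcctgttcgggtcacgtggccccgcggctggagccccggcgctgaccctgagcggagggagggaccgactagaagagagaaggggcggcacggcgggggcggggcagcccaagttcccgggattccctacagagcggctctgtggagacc
Hba-x, chr11:32276350-32276599, plus strand: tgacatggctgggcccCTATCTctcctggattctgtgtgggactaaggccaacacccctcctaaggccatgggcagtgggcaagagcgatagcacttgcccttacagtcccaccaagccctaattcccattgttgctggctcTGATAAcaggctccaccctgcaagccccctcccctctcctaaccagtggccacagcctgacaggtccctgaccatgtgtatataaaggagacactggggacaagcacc
Alas2, chrX:150547167-150547416, plus strand: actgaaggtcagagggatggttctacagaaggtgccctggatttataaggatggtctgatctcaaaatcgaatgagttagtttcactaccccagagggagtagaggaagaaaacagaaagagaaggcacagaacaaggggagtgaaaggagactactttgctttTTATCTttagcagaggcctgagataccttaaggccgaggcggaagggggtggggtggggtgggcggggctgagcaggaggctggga
Nppa, chr4:148000472-148000721, plus strand: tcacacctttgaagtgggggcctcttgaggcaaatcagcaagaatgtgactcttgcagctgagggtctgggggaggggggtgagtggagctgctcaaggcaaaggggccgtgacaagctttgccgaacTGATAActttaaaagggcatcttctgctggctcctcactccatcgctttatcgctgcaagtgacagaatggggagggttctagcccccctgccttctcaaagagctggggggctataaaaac
The 250 bases were 54.0% G or C for Gata1 and 70.0% for Gata5, against a median of 52.4% over all windows. A motif in such a window is a match of letters and not a measured binding site.

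Values are RMA log2 expression, so a difference of 1 is a 2-fold change, and a level can be compared between arrays but not between genes. Array medians lay between 7.26 and 7.53 and lower quartiles between 5.60 and 5.69. A fold from a group mean under these medians may be no exact measure, also where this is not repeated below. Among the list genes this holds for the folds of Mef2c, Tbx5, Zfpm2, Slc8a1, Tnnc1, Nppa, Alas2 and Slc4a1. In the progenitor groups the sort markers followed the labels: the mean of Pdgfra was 11.35 ± 0.42 (SD over 3 arrays) in the double-positive cells and 6.96 ± 0.40 in Flk1+. Kdr was at 11.98 ± 0.25 and 12.30 ± 0.16 there. Tnnt2 was at 12.28 ± 0.38 in cTnT+, 7.01 ± 0.37 in Flk1+Pdgfra+ and 8.36 ± 0.52 in Flk1+. Pdgfra in cTnT+ (11.31 ± 0.32) was close to its level in Flk1+Pdgfra+, and Kdr was at 10.84 ± 0.50 in cTnT+. The third progenitor arrays stood apart. Flk1+ replicate 3 had a mean of 8.93 over 12 pluripotency genes, against 6.72 and 7.02 on the other Flk1+ arrays, and Flk1+Pdgfra+ replicate 3 had a mean of 6.62 over 12 endothelial genes, against 7.70 and 7.78. Differences of named genes that these arrays move by over 1.5 times are given without them as well. In these bulk samples, fewer cells of a type and less RNA per cell cannot be told apart. RefSeq places noncoding RNAs across parts of Gata1, Gata2, Gata3, Gata5 and Gata6, and how the probes separate them from the gene is not given in the sources used here.

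**Figure D1:**
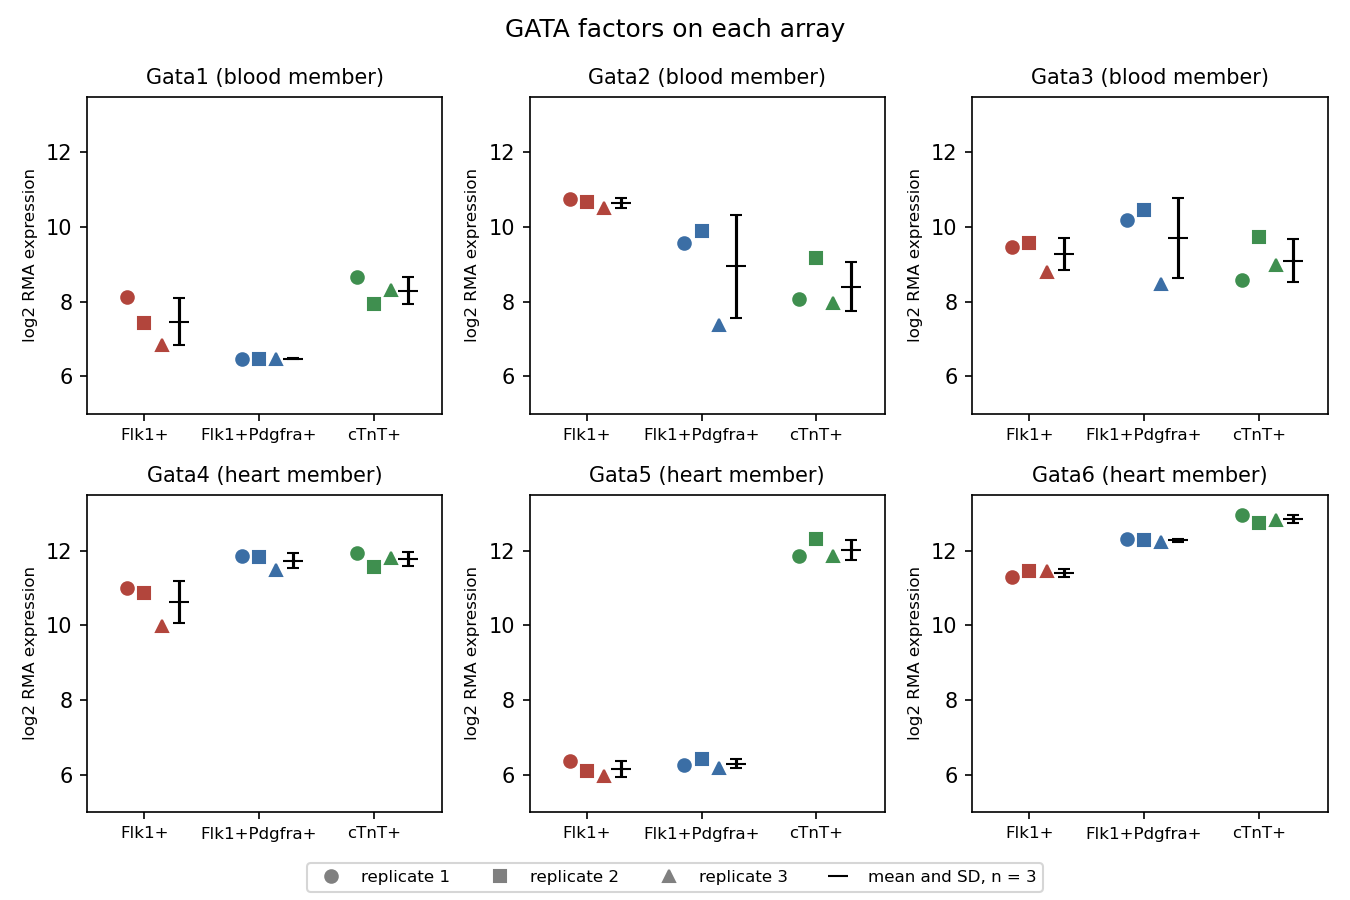
Level of each GATA factor on every array (y axis, log2 RMA expression; x axis, group), with symbols for the replicate number and the mean with its SD beside them. Gata5 sits between 5.97 and 6.42 on the 6 progenitor arrays and between 11.86 and 12.32 on the cTnT+ arrays, while Gata6 takes 3 separate levels.

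Among the heart members, Gata5 (transcript cluster 6894187, chromosome 2, 180325088 to 180335503 in GRCm38.p6) had the largest difference. It was at 6.37, 6.09 and 5.97 on the 3 Flk1+ arrays, at 6.25, 6.42 and 6.19 on the Flk1+Pdgfra+ arrays and at 11.87, 12.32 and 11.86 on the cTnT+ arrays. All cTnT+ arrays were thus far above every progenitor array, and the progenitor groups overlapped. Gata5 rose 53.1-fold from Flk1+Pdgfra+ to cTnT+ (limma, difference 5.73, standard error 0.16, adjusted p = 1.04e-06) and was 58.6-fold higher in cTnT+ than in Flk1+ (5.87, adjusted p = 1.28e-06). In absolute size these differences ranked 9 and 7 of the 14860 genes. The progenitor levels lay below the array medians (7.26 to 7.53) and no detection p was used, so these folds may be no exact measure. Whether Gata5 was detected in the progenitors was not tested. Between the progenitor populations Gata5 differed by 0.14 (95% interval -0.22 to 0.50, adjusted p = 0.621).

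Gata6 (transcript cluster 6858842, chromosome 18, 11052510 to 11085636) differed in all 3 comparisons by smaller amounts. Its levels were 11.29, 11.46 and 11.46 in Flk1+, 12.32, 12.29 and 12.24 in Flk1+Pdgfra+, and 12.96, 12.74 and 12.83 in cTnT+. The 3 groups did not overlap, with Flk1+ lowest and cTnT+ highest. Flk1+Pdgfra+ was 1.84-fold above Flk1+ (0.88, standard error 0.088, adjusted p = 0.00157), cTnT+ was 1.47-fold above Flk1+Pdgfra+ (0.56, adjusted p = 0.00131) and 2.71-fold above Flk1+ (1.44, adjusted p = 2.42e-05). These calls were kept under each alternative tried.

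Gata4 (transcript cluster 6825305, chromosome 14, 63198914 to 63271712) separated Flk1+ from the other groups. It read 11.01, 10.88 and 9.99 in Flk1+, 11.86, 11.83 and 11.50 in Flk1+Pdgfra+, and 11.95, 11.56 and 11.81 in cTnT+. Every Flk1+ array was below every other array, and Flk1+Pdgfra+ and cTnT+ overlapped. The difference between Flk1+Pdgfra+ and Flk1+ was 1.10 (2.15-fold, standard error 0.26, adjusted p = 0.0311), and that between cTnT+ and Flk1+ was 1.15 (2.22-fold, adjusted p = 0.00794). Without Flk1+ replicate 3, the lowest array, these were 0.79 (adjusted p = 0.0141) and 0.83 (adjusted p = 0.00413). From Flk1+Pdgfra+ to cTnT+ it was 0.047 (95% interval -0.54 to 0.64, adjusted p = 0.906), and the sign turned with arrays centred on their medians (-0.064). The call between the progenitor populations was lost without Flk1+Pdgfra+ replicate 1 (adjusted p = 0.110), replicate 2 (0.112) or replicate 3 (0.0501), without Flk1+ replicate 2 (0.0643), and with only the 6 progenitor arrays in the fit (0.0622).

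Among the blood members, Gata1 (transcript cluster 7015432, chromosome X, 7959260 to 7976663) was highest in cTnT+. It was at 6.47, 6.46 and 6.48 on the Flk1+Pdgfra+ arrays, which differed by less than those of any other member and group, at 8.13, 7.43 and 6.85 on the Flk1+ arrays, and at 8.66, 7.93 and 8.30 on the cTnT+ arrays. Every Flk1+Pdgfra+ array was below all others, and Flk1+ and cTnT+ overlapped in 1 array each. Gata1 rose 3.55-fold from Flk1+Pdgfra+ to cTnT+ (1.83, standard error 0.30, adjusted p = 0.00166), under each alternative tried. Its Flk1+Pdgfra+ levels lay below the array medians (7.26 to 7.53), so this fold may be no exact measure either. Gata1 was 1.00 lower in Flk1+Pdgfra+ than in Flk1+, which did not pass (95% interval -1.70 to -0.30, adjusted p = 0.0764). It passed without Flk1+ replicate 3 (-1.31, adjusted p = 0.0126), with progenitor replicates 1 and 2 only (0.0317) and with array weights (-1.01, adjusted p = 0.000475). The difference of 0.83 between cTnT+ and Flk1+ did not pass either (95% interval 0.13 to 1.52, adjusted p = 0.0614), except with array weights (0.0172), with the replicate block (0.0406) and without Flk1+ replicate 1 (1.16, adjusted p = 0.00922).

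Gata2 (transcript cluster 6947763, chromosome 6, 88193891 to 88207032) was highest in Flk1+. Its levels were 10.76, 10.68 and 10.51 in Flk1+, 9.57, 9.90 and 7.37 in Flk1+Pdgfra+, and 8.08, 9.16 and 7.96 in cTnT+. Every Flk1+ array lay above all others, while Flk1+Pdgfra+ spread widely because replicate 3 was 2.37 below the mean of the other arrays of its group. Gata2 was 4.75-fold lower in cTnT+ than in Flk1+ (-2.25, standard error 0.62, adjusted p = 0.0204), a call lost without Flk1+ replicate 1 (adjusted p = 0.0585) or replicate 2 (0.0588) and without cTnT+ replicate 1 (0.0646) or replicate 3 (0.0654). The difference of -1.70 between Flk1+Pdgfra+ and Flk1+ did not pass (95% interval -3.13 to -0.28, adjusted p = 0.128). It was -0.91 without Flk1+Pdgfra+ replicate 3 (adjusted p = 0.174), and with array weights it was -1.10 and passed (adjusted p = 0.0215). From Flk1+Pdgfra+ to cTnT+ the difference was -0.54 (95% interval -1.97 to 0.88, adjusted p = 0.537), and without Flk1+Pdgfra+ replicate 3 it was -1.33 and passed (adjusted p = 0.0191).

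Gata3 (transcript cluster 6884642, chromosome 2, 9857078 to 9887953) did not pass in any comparison of all 9 arrays. Its levels were 9.47, 9.56 and 8.79 in Flk1+, 10.20, 10.47 and 8.48 in Flk1+Pdgfra+, and 8.59, 9.72 and 8.99 in cTnT+. All 3 groups overlapped, and Flk1+Pdgfra+ replicate 3 was the lowest of the 9 arrays. Differences were 0.44 for Flk1+Pdgfra+ against Flk1+ (95% interval -0.76 to 1.64, adjusted p = 0.651), -0.61 for cTnT+ against Flk1+Pdgfra+ (-1.82 to 0.59, adjusted p = 0.403) and -0.17 for cTnT+ against Flk1+ (-1.38 to 1.03, adjusted p = 0.837). Without Flk1+Pdgfra+ replicate 3, the first of these was 1.06 and did not pass (adjusted p = 0.135), and Gata3 was 1.23 lower in cTnT+ than in Flk1+Pdgfra+ (adjusted p = 0.0307).

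**Figure D2:**
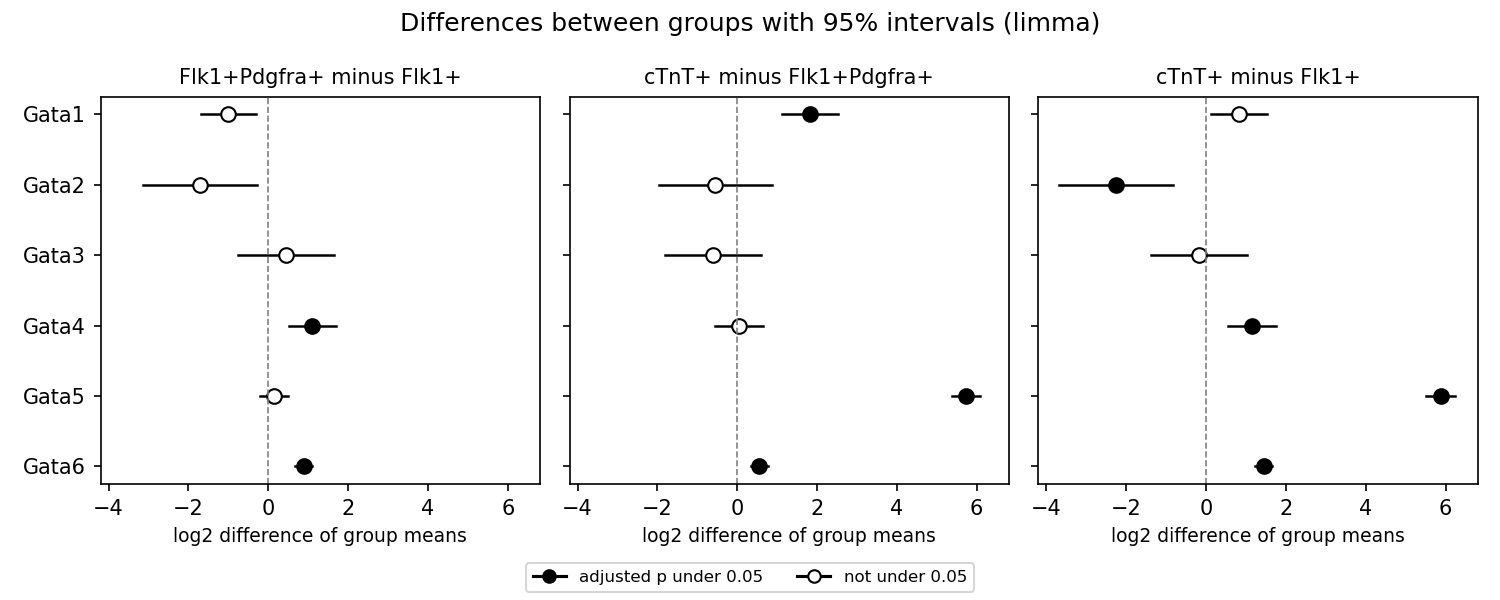
Difference between group means (x axis, log2) of each GATA factor (y axis) in the 3 comparisons, with limma's 95% interval as a line and a filled point where the adjusted p was under 0.05. Gata5 lies at 5.73 and 5.87 in the comparisons with cTnT+, and Gata2 has the widest intervals.

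In Flk1+Pdgfra+ against Flk1+, 2 of the 3 heart members were called higher, and both blood members whose groups did not overlap, Gata1 and Gata2, were lower but uncalled (unadjusted p = 0.0105 and 0.0247). Of all genes, 10.5% were called here (4.64% higher and 5.87% lower), and without overlap between the groups 20.2% were higher and 14.1% lower. From Flk1+Pdgfra+ to cTnT+, Gata1, Gata5 and Gata6 rose, which is 3 of 6 against 41.2% of all genes called (22.5% higher and 18.7% lower). In that comparison 28.8% of all genes were higher and 26.2% lower without overlap, and the 3 called members were those without overlap. Against Flk1+, the 3 heart members were higher in cTnT+ and Gata2 was lower, 4 of 6 against 39.2% of all genes (22.6% higher and 16.6% lower, and 26.8% and 20.6% without overlap). The 3 comparisons share arrays, so their counts are not independent. With each gene centred on its own mean over the 9 arrays, the blood members minus the heart members averaged 1.44 to 1.76 on the Flk1+ arrays, 0.47, 0.63 and -0.67 on Flk1+Pdgfra+ replicates 1, 2 and 3, and -1.95 to -1.40 on the cTnT+ arrays. The 1 negative value in Flk1+Pdgfra+ is that of replicate 3, which stood apart. On the cTnT+ arrays Gata5 was 3.71 to 4.17 above its own mean, and Gata4 and Gata6 were 0.19 to 0.78 above theirs. Gata5 was at -2.18 to -1.73 on the progenitor arrays, so it weighs heavily in this contrast. The blood members alone averaged -0.26, 0.24 and -0.28 on the cTnT+ arrays and did not fall together there. Gata1 was at 0.52 to 1.24, Gata2 at -1.37 to -0.17 and Gata3 at -0.77 to 0.36.

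Partners of the heart members were mostly higher in cTnT+ than in the progenitor groups. Of 12 heart partners, 9 rose from Flk1+Pdgfra+ to cTnT+ and 10 were higher in cTnT+ than in Flk1+, with median differences of 1.84 and 2.95 against 0.0043 and 0.053 over all genes. Mef2c, a MADS-box factor of heart muscle, rose 28.6-fold (7.23 ± 0.11 to 12.07 ± 0.48, adjusted p = 1.15e-05), and Tbx5, a T-box factor of the heart, rose 17.1-fold (adjusted p = 0.000167). Zfpm2, which encodes the Gata4 cofactor Fog2, averaged 7.22 ± 0.19 in Flk1+Pdgfra+, 8.32 ± 0.091 in Flk1+ and 9.76 ± 0.21 in cTnT+, with no overlap between groups. Its order differs from that of Gata4 and Gata6, since Zfpm2 was lower in Flk1+Pdgfra+ than in Flk1+ (-1.09, adjusted p = 0.00283). From Flk1+Pdgfra+ to cTnT+ it rose 5.79-fold (adjusted p = 8.73e-06). In Flk1+Pdgfra+ against Flk1+, 1 heart partner was called higher, the progenitor factor Isl1 (2.01, adjusted p = 0.00975), and Zfpm2, Mef2c and Klf13 were lower, with a median over the list of 0.82 against 0.068 over all genes. With the replicate block 3 heart partners were higher and 3 lower. With the 6 progenitor arrays and the block, 5 heart partners were higher and 3 lower, and with progenitor replicates 1 and 2 only the counts were the same. Without replicate 3 of either progenitor group, 4 were higher and 3 lower.

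Heart genes whose dependence on GATA4 is known from earlier work were mostly higher in cTnT+ than in the progenitor groups. Of 13 listed, 8 were measured in single-symbol rows, and 6 of these rose from Flk1+Pdgfra+ to cTnT+ (median 1.01). Slc8a1, the sodium-calcium exchanger, rose 39.3-fold (6.49 ± 0.16 to 11.79 ± 0.42, adjusted p = 6.39e-06), and Tnnc1, cardiac troponin C, rose 25.6-fold (adjusted p = 2.18e-05). Nppa, which encodes atrial natriuretic peptide and whose promoter shown above holds TGATAA, was at 6.07, 6.24 and 6.21 in Flk1+Pdgfra+ and at 9.76, 7.84 and 8.83 in cTnT+, 6.21-fold higher (adjusted p = 0.00099). Over the listed genes, 5 of 13 promoter windows (38.5%) held a GATA motif, against 29.8% of all windows. For the heart partners it was 3 of 11 windows (27.3%). In cTnT+ against Flk1+ 6 of the 8 were higher as well (median 1.47), and in Flk1+Pdgfra+ against Flk1+ Bcl2, a survival factor, was the 1 gene called (-0.91, adjusted p = 0.00867). Without Flk1+ replicate 3, 2 genes of the list were higher there and 1 lower, and with the replicate block 1 was higher and 1 lower.

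The blood partners of GATA factors set Flk1+ apart. Of 11 listed, 10 were measured, and 7 were lower in Flk1+Pdgfra+ than in Flk1+ (median -1.79), a count that was 3 without Flk1+ replicate 2 and 4 without Flk1+Pdgfra+ replicate 1 or Flk1+ replicate 1. Tal1, a helix-loop-helix factor required to form blood, was at 11.30, 11.32 and 11.05 in Flk1+, at 8.97, 9.23 and 8.24 in Flk1+Pdgfra+ and at 8.87, 8.95 and 8.87 in cTnT+. It was 5.31-fold lower in Flk1+Pdgfra+ than in Flk1+ (adjusted p = 0.00112), and the Ets factors Fli1 and Erg were 12.8-fold and 11.2-fold lower (adjusted p = 0.011 and 0.00235, the former 0.0502 without Flk1+ replicate 2). Fli1 was at 9.16, 9.57 and 6.69 on the Flk1+Pdgfra+ arrays, and without replicate 3 its difference was -2.79, or 6.90-fold (adjusted p = 0.00227). In cTnT+, 7 of the 10 were below Flk1+ (median -1.59), among them Tal1 (-2.33, adjusted p = 0.000141) and Lmo2, the bridging protein of the Tal1 and GATA complex (-2.23, adjusted p = 0.00177). From Flk1+Pdgfra+ to cTnT+ 4 rose, led by Erg (1.73, adjusted p = 0.0102). Gfi1b, a repressor of red cell and platelet development, rose as well (1.64, adjusted p = 0.037). The call of Gfi1b was lost among others with the replicate block (0.0520) and without Flk1+Pdgfra+ replicate 3 (0.0962). Runx1, a founder factor of blood, fell by 1.60 (adjusted p = 0.00855).

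Red cell and megakaryocyte genes rose, as Gata1 did, from Flk1+Pdgfra+ to cTnT+. Of 15 listed, 12 were measured, and all 12 measured rose from Flk1+Pdgfra+ to cTnT+ by limma (median 1.45), while 22.5% of all genes did. The count was 12 with progenitor replicates 1 and 2 only, 11 with the replicate block and 10 with arrays centred on their medians, a scaling that shifts all differences of this comparison by -0.11. Hba-x, the embryonic zeta globin, read 7.02, 7.44 and 7.44 in Flk1+Pdgfra+, 7.24, 7.21 and 7.14 in Flk1+, and 13.01, 12.27 and 13.09 in cTnT+. It rose 44.8-fold from Flk1+Pdgfra+ (adjusted p = 4.68e-06). Hbb-y, an embryonic beta globin, rose by 5.95 (5.26 ± 0.30 to 11.21 ± 1.29, adjusted p = 0.000126), and since its lower level is below the lower quartiles of the arrays, the fold is no exact measure. Alas2, the haem synthesis enzyme of red cells, was at 6.26, 6.17 and 6.18 in Flk1+Pdgfra+ and at 10.65, 9.05 and 11.00 in cTnT+, 16.4-fold higher (adjusted p = 0.000394). Without cTnT+ replicate 2, the lowest cTnT+ array for both genes, the difference was 6.65 for Hbb-y and 4.63 for Alas2.

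In cTnT+ against Flk1+, 10 of the 12 red cell and megakaryocyte genes were higher (median 1.46), and Itga2b, the platelet integrin of early blood progenitors, was lower (-1.48, adjusted p = 0.0147). Slc4a1, the red cell anion exchanger, was 10.6-fold higher (adjusted p = 0.00143), and 17.3-fold higher without cTnT+ replicate 2. In Flk1+Pdgfra+ against Flk1+ Itga2b was the 1 gene of the list called (-2.63, adjusted p = 0.00488), and 2 were called without Flk1+ replicate 3 or cTnT+ replicate 2. The mean level of the list was 8.29 to 9.16 on the cTnT+ arrays, 6.44 to 6.96 in Flk1+ and 6.27 to 6.42 in Flk1+Pdgfra+. Among the cTnT+ arrays, replicate 2 was lowest both for Gata1 (7.93) and for the list mean (8.29), and highest for Gata2 (9.16) and for the endothelial list mean (10.36). The match was not complete: Gata1 was highest on replicate 1 (8.66) and the list mean on replicate 3 (9.16, against 8.75 on replicate 1). Itga2b (9.01) and Epor (8.89), both of the list, were highest on replicate 2. Promoter windows were matched for 10 genes of the list, and 8 of these 10 windows held a GATA motif, against 29.8% of all windows. In Hba-x, counting the base just before the start as -1, AGATAG lay on the opposite strand at -234 and TGATAA on the gene's strand at -108, as shown above.

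**Figure D3:**
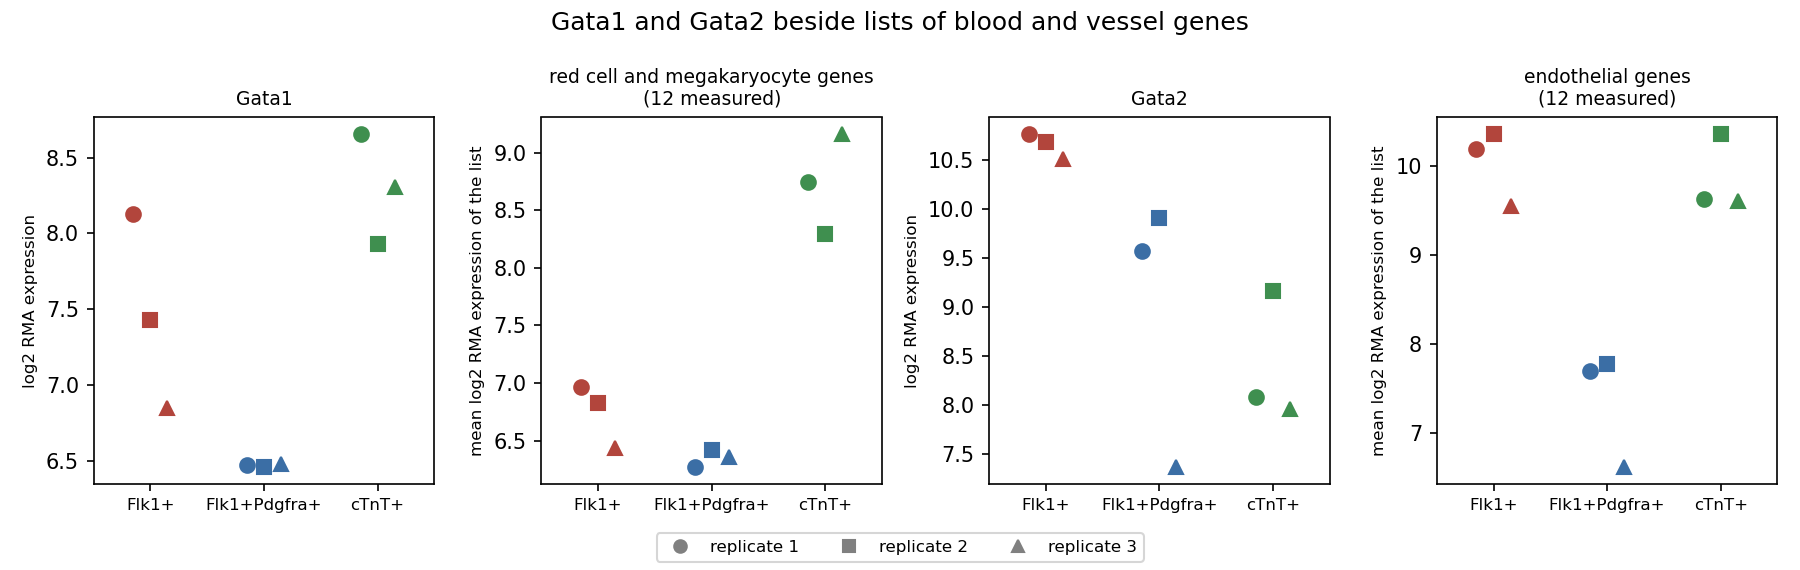
Level of Gata1 and Gata2 and the mean level of 12 red cell and megakaryocyte genes and of 12 endothelial genes on every array (y axes, log2 RMA expression, each with its own range; x axis, group). The red cell list lies between 8.29 and 9.16 on the cTnT+ arrays and below 7 on all progenitor arrays, and the endothelial list is lowest on the Flk1+Pdgfra+ arrays.

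The endothelial list was mostly lower in Flk1+Pdgfra+ than in the other groups. Of 12 genes, 10 were lower in Flk1+Pdgfra+ than in Flk1+ (median -2.88, 5 without Flk1+ replicate 2), and 10 rose from Flk1+Pdgfra+ to cTnT+ (median 2.47). Tek, the angiopoietin receptor, was 16.6-fold lower in Flk1+Pdgfra+ than in Flk1+ (adjusted p = 0.00342), and 10.1-fold lower without Flk1+Pdgfra+ replicate 3 (adjusted p = 0.00101). Emcn, an endothelial sialomucin, rose from 5.97 ± 0.89 in Flk1+Pdgfra+ to 11.18 ± 0.33 in cTnT+ (difference 5.22, adjusted p = 0.000441). Its Flk1+Pdgfra+ replicate 3 (4.94) was below the lower quartiles of the arrays, so the fold is no exact measure, and the difference without that array was 4.71 (adjusted p = 0.0016). In cTnT+ against Flk1+ 3 were higher and 2 lower (median -0.81). With progenitor replicates 1 and 2 only 3 were higher and 7 lower, and without Flk1+ replicate 1 or 2, or cTnT+ replicate 1 or 2, 3 were called in all. The mean level of the list was 9.61 to 10.36 in cTnT+, 9.56 to 10.35 in Flk1+ and 6.62 to 7.78 in Flk1+Pdgfra+. Flk1+Pdgfra+ replicate 3, which was lowest of all arrays for Gata2 and Gata3, was also lowest for this list and for the blood partner mean (8.19). Within its group it was lowest for the heart partner mean as well (8.49 against 8.85 and 8.92). The median deviation from the group mean on that array was -0.72 over the endothelial list, -0.31 over the blood partners and -0.055 over the heart partners. Of the heart partners, Hand1 was at 8.61 there against 11.38 and 11.37, and Tbx20, Hand2, Zfpm2, Nfatc4 and Klf13 were lowest there too. Isl1 was higher (8.94 against 7.94 and 7.95), as were Tbx5, Mef2c, Srf and Smarcd3. What part endothelial and blood cells have in the levels of Gata1, Gata2 and Gata3 was not tested.

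Endoderm, trophoblast and T cells also use GATA factors. Of 9 measured endoderm genes, Dab2, an endocytic adaptor that is also found outside endoderm, was the 1 gene to rise from Flk1+Pdgfra+ to cTnT+ (3.09, adjusted p = 5.97e-05), and Sox7, which is also endothelial, was the 1 gene called in Flk1+Pdgfra+ against Flk1+ (-3.69, adjusted p = 0.0121). The difference of Sox7 was -2.87 without Flk1+Pdgfra+ replicate 3, and its call was lost without Flk1+ replicate 2 (0.0558). Endoderm counts of 1 or 2 calls moved between 0 and 4 as single arrays were left out. In cTnT+ against Flk1+ Dab2 was higher (3.71) and Sox7 lower (-2.44, adjusted p = 0.0204), a call of Sox7 lost without Flk1+ replicate 1 or 2 or cTnT+ replicate 1 or 3 (0.0623 to 0.0671). Of 9 trophoblast genes, 3 fell from Flk1+Pdgfra+ to cTnT+, led by Eomes, a T-box factor that also marks the primitive streak, from 12.99 ± 0.02 to 6.90 ± 0.25 (adjusted p = 4.97e-06). Eomes was higher in Flk1+Pdgfra+ than in Flk1+ (1.77, adjusted p = 0.0053), the 1 trophoblast gene called there against 3 without Flk1+ replicate 3, and 2 genes, Eomes and Tead4, were lower in cTnT+ than in Flk1+. With all 9 arrays and no block, limma called 0 of 6 T cell genes in each comparison, and at an unadjusted p under 0.05 the counts were 0, 1 (Il4, lower in cTnT+ than in Flk1+Pdgfra+ by 0.36) and 0. Il4 was called in that comparison with the replicate block (adjusted p = 0.0345), with median centring (0.0188), with only the arrays compared (0.0462) and without Flk1+ replicate 3 (0.0268), and with array weights 3 T cell genes were called higher in Flk1+Pdgfra+ than in Flk1+. Their mean level was 5.41 to 5.70 on the 9 arrays, near the lower quartiles.

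Of 7 other genes for proteins with GATA-type zinc fingers, Gatad2a and Mta2, subunits of the NuRD chromatin complex, fell from Flk1+Pdgfra+ to cTnT+ by 0.66 and 0.44 (adjusted p = 0.000564 and 0.00264). In cTnT+ against Flk1+ 3 were lower and Mta3 was higher (0.49, adjusted p = 0.0107). Mta3 was also higher in Flk1+Pdgfra+ than in Flk1+ (0.47, adjusted p = 0.0404, a call lost among others with the replicate block, 0.0731, and without any 1 array other than replicate 3 of a progenitor group). Of 12 pluripotency genes, 4 fell from Flk1+Pdgfra+ to cTnT+, among them Pou5f1 (-4.50, adjusted p = 0.00398), and 7 with progenitor replicates 1 and 2 only or without Flk1+ replicate 3. In Flk1+Pdgfra+ against Flk1+ Tdgf1 was higher (4.23, adjusted p = 0.0448, and 0.0616 with the replicate block) and Dppa4 lower (-3.40, adjusted p = 0.0126, and 0.0606 with progenitor replicates 1 and 2 only). Without Flk1+ replicate 3, or with progenitor replicates 1 and 2 only, 5 pluripotency genes were higher there and 1 lower, while without Flk1+Pdgfra+ replicate 2 or Flk1+ replicate 2 the count was 0. Tdgf1 was 5.55 higher without Flk1+ replicate 3 (adjusted p = 0.00219). In cTnT+ against Flk1+ 1 was higher and 3 lower, and 4 and 4 with progenitor replicates 1 and 2 only, while without Flk1+ replicate 2 or cTnT+ replicate 1 none was higher and 2 were lower.

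**Figure D4:**
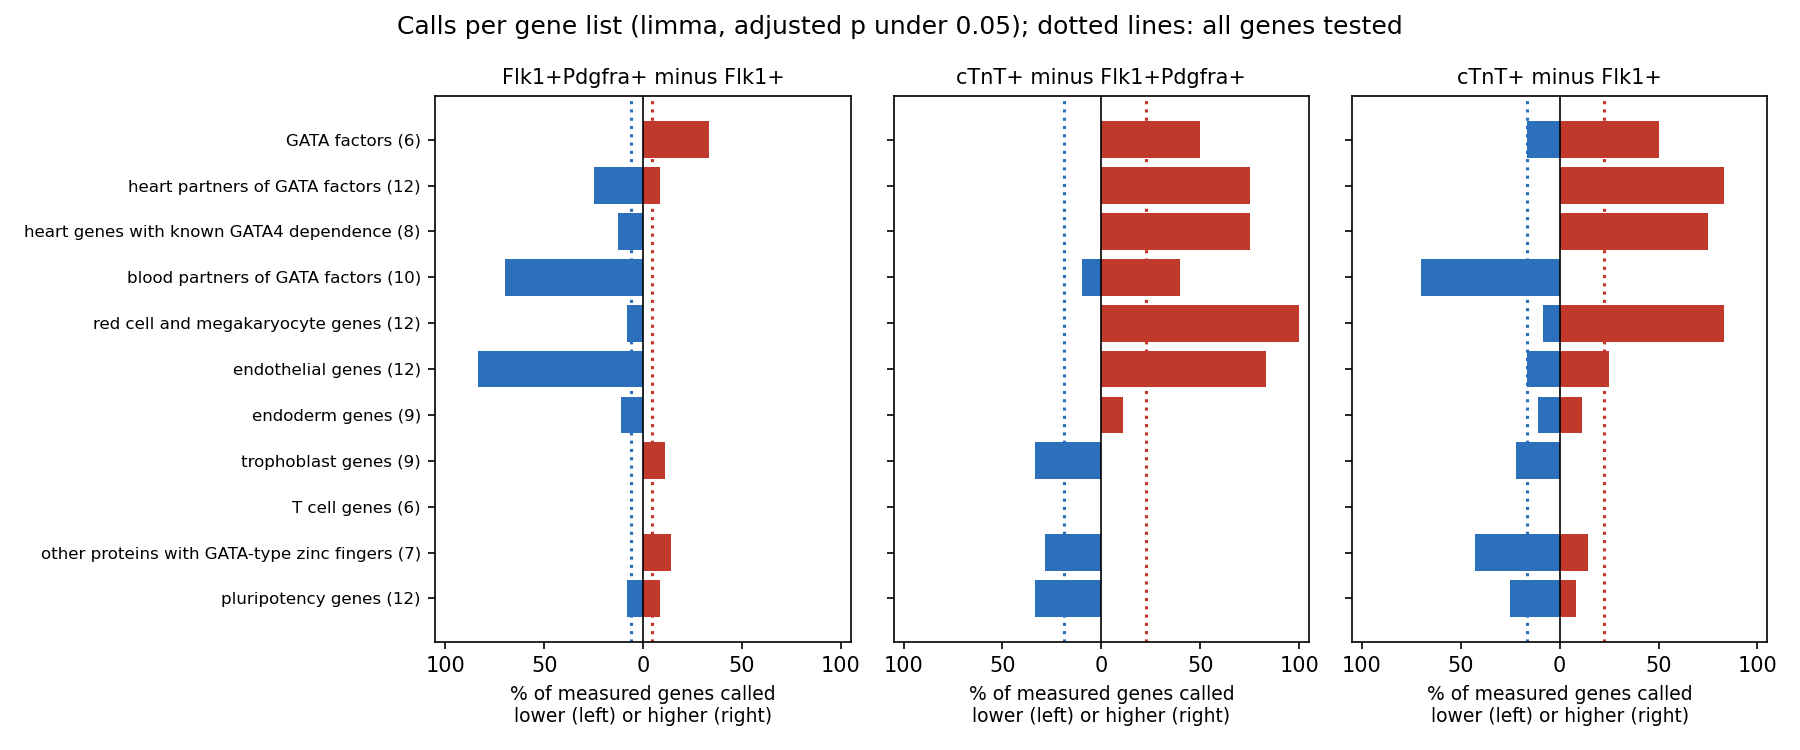
Share of the measured genes of each list (y axis, number measured in brackets) that limma called lower (bars to the left, x axis in percent) or higher (bars to the right) in the 3 comparisons, with dotted lines at the shares over all 14860 genes. All 12 measured red cell and megakaryocyte genes lie to the right in cTnT+ minus Flk1+Pdgfra+, and 7 of 10 blood partners lie to the left in both comparisons with Flk1+.

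The genes whose pattern was most like that of a called member were found by the root mean square difference (RMS) of centred log2 values over the 9 arrays, which share the 3 groups, so likeness mostly reflects group means. Nearest to Gata5 were Ppargc1a (RMS 0.33), Tnni1 (0.33), Smyd1 (0.36), Hba-x (0.38) and Actn2 (0.40). Gata6 was followed most closely by Fbln1 (0.16), Ypel3 (0.17), Tsc22d3 (0.17), Unc119 (0.18) and Snx7 (0.18), and Gata4 by Fut4 (0.23), Khdrbs3 (0.31), Gpx7 (0.33), Nsg2 (0.33) and Pja1 (0.34). For Gata1 they were Tspan32 (0.23), Hipk3 (0.31), F10 (0.32), Satb1 (0.33) and Hoxb4 (0.34). Gata2 had no gene as near, with Rapgef5 (0.49), Hspa12a (0.51), Mall (0.52), Fam110c (0.54) and Tal1 (0.60). Among the members themselves, Gata4 and Gata6 were the most alike pair (0.37) and Gata2 and Gata5 the least alike (3.53). Likeness did not follow the blood and heart classes throughout. Gata1 was nearest to Gata6 (0.87), Gata3 to Gata4 (0.78) and Gata5 to Gata1 (2.19), while Gata2 was nearest to Gata3 (1.02).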

How the data were processed

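Gene expression was measured on 9 Affymetrix Mouse Exon 1.0 ST arrays. The deposited values are log2 RMA expression at the core-gene level from the Transcriptome Analysis Console software, per the labels, and R 3.3.1 and RMA are named in the submitters' processing notes. RMA removes differences between arrays in total RNA. The sources used here name neither the library file nor a build.

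Of 23332 transcript clusters, 14996 carried 1 symbol in the platform annotation, and 14941 of these were updated through RefSeq (GRCm38.p6). The brightest cluster per gene left 14860 genes. Groups were compared with limma 3.58.1 in R 4.3.3 (lmFit, eBayes, all 9 arrays, 6 residual and 2.23 prior degrees of freedom, two-sided, Benjamini-Hochberg over all genes), with calls at an adjusted p under 0.05. The fit was tested on simulated data. The number of arrays limits the precision, and no detection p was used.

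Members and lists were chosen with earlier results of these data known. Named were all members, up to 3 called genes per list and comparison with the largest difference (the smallest p where none was called), and the 5 genes most like each called member, predicted genes left out. Klf13, and Itga2b in cTnT+ against Flk1+, fall outside this rule and were named after their values were seen. Same-numbered arrays of the progenitor groups deviated together (correlations of deviations 0.25, 0.32 and 0.46 across genes). The third arrays stood apart in both groups, which alone can give such correlations, so these do not show that the numbers pair the arrays. Across transcript clusters, Flk1+Pdgfra+ replicate 1 correlated most with Flk1+ replicate 3 (0.976) among the Flk1+ arrays. Replicate 2 did so with Flk1+ replicate 1 (0.974) and replicate 3 with Flk1+ replicate 3 (0.972). For cTnT+ with either progenitor group the correlations of deviations were 0.023 to 0.095. Pairing was not assumed in the main fit, and the replicate block takes equal numbers as pairs. Motifs were counted in Python 3.11.15. Alternatives were the replicate block, a filter on the dimmest 25% of genes, quantile normalization, median centring, an intensity trend, array weights, all transcript clusters, the mean per gene, only the arrays compared, the third progenitor arrays left out and each array left out. Fitting the 6 progenitor arrays alone with that block was chosen after seeing the data.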

Additional observations from a re-analysis of the deposited data

How the results depend on the processing

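Of 86 differences (a gene in a comparison), 63 kept direction and side of the threshold under every alternative. Over all recomputed differences, 69 lost the call, 16 gained it and 6 turned direction. For Flk1+Pdgfra+ against Flk1+, the 2 GATA members called became 4 with array weights, with Gata1 and Gata2 added. They became 1 with only the arrays compared, and 1 to 3 as single arrays were left out. The 1562 genes called became 7538 with array weights and 664 to 2309 as single arrays were left out. From Flk1+Pdgfra+ to cTnT+, the 3 members called became 5 with progenitor replicates 1 and 2 only and 3 to 5 as arrays were left out, with Gata2 and Gata3 added. For cTnT+ against Flk1+ the 4 members called were 3 to 4 as arrays were left out. Gata4 from Flk1+Pdgfra+ to cTnT+, uncalled throughout, turned to -0.064 with median centring, -0.050 under array weighting and -0.068 when replicate 3 of both progenitor groups was dropped. It ranged from -0.068 to 0.15 as single arrays were left out, negative without Flk1+Pdgfra+ replicate 3 (-0.068) or cTnT+ replicate 1 (-0.040). Gata3 in cTnT+ against Flk1+ ranged from -0.48 to 0.085 as single arrays were left out, positive without cTnT+ replicate 1. The cause was not tested. With the replicate block, 2, 3 and 5 members were called, since Gata1 passed in cTnT+ against Flk1+ (0.83, adjusted p = 0.0406), and no other member changed its call. Median centring shifts all differences from Flk1+Pdgfra+ to cTnT+ by -0.11. Weights of the third progenitor arrays were 0.494 and 0.251.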
